A study of Silurus asotus with 15 samples.

Results

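The head kidney and kidney of the Amur catfish, Silurus asotus, gave 2 of 15 tissue libraries and were set against the 13 other libraries. Each gene was taken at the lower of its head kidney and kidney values and compared with the highest value among the 13 others, so a gene counted as higher only where no other tissue reached either kidney. The 13 others were the libraries labelled brain and gill and those of heart, spleen, liver, pancreas, pituitary, both gonads (ovary and testis), muscle, skin and both barbels (maxillary and mandibular). All came from adult fish of a benthic environment, and the labels give no sex, age in days or number of fish. Each tissue had 1 poly(A) paired-end library. No difference below therefore has a replicate check. There are no p-values, and a call means only that a gene passed a stated fold in these libraries.

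Bony fishes have no blood-forming bone marrow, and their blood cells are made in the tissue between the kidney tubules. The head kidney, the front part of the organ, is mainly blood-forming and lymphoid tissue in adults and also holds the steroid-making interrenal cells and the catecholamine-making chromaffin cells. The kidney proper carries the nephrons, embedded in the same kind of blood-forming tissue. Nephrosin is a metalloprotease of the astacin family described from carp head kidney and used as a granulocyte marker in zebrafish, and eosinophil peroxidase is a haem enzyme of leucocyte granules.

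The markers of each organ went with its label. Of 28 matched nephron genes, 3 were higher in head kidney and 25 were higher in kidney. The sulphate transporter slc26a1 had 0.0115 FPKM (mapped fragments scaled to gene length and to library size) in head kidney and 55.1 FPKM in kidney. The sulphate cotransporter slc13a1 was listed at 0 in head kidney and had 43.7 FPKM in kidney. Steroid synthesis genes ran the other way. The cholesterol carrier star had 76.9 FPKM in head kidney and 0.249 FPKM in kidney, and steroid 21-hydroxylase had 11.98 FPKM in head kidney and 0.0344 FPKM in kidney. Chromaffin genes were near the floor in both: tyrosine hydroxylase had 0.751 FPKM in head kidney and 0.0493 FPKM in kidney.

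The libraries labelled brain and gill went against their labels. All 8 nerve markers checked were higher in the library labelled gill, among them snap25, a synaptic vesicle fusion protein, with 1659 FPKM there and 0.0938 FPKM in the library labelled brain. Of 7 gill and epithelial markers, 6 were higher in the library labelled brain, among them the gill transcription factor gcm2 with 0.0436 FPKM in the library labelled gill and 96.2 FPKM in the library labelled brain. Both are named by their labels below, and the counts of genes are also given after leaving them out. Summed FPKM ran from 239905 to 738341 per library, and stood at 449358 in head kidney and 428344 in kidney. The file holds no counts, so absolute depth is unknown. The most common low value of FPKM times coding length was compared between libraries. It was 1 to 1.12 times the smallest such value in 11 libraries, both kidneys included. It was 4.27 to 6.46 times that value in muscle, skin and the barbels, where low genes are measured more coarsely. Across all 25089 genes the kidneys were each other's closest library, with a Spearman rho of 0.955, against 0.917 for head kidney with spleen and 0.893 for kidney with spleen, a description over genes that are not independent.

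At any fold, 911 genes with 5 FPKM or more in the lower kidney were higher in both kidneys than in all 13 other libraries. That is 3.63% of all genes and 12.3% of the 7379 genes at 5 FPKM or more in both kidneys. At least 2-fold higher, on log2(FPKM + 1), were 161 genes, which is 0.642% of all genes and 2.18% of the 7379. At least 5-fold higher were 5 genes, 0.0199% of all genes and 0.0678% of the 7379. In the other direction 1 gene was at least 2-fold lower in both kidneys than in every other library, 0.00399% of all genes and 0.0664% of the 1506 genes at 5 FPKM or more in all 13 others. With the brain and gill labels left out, the 3 counts of higher genes were 1202, 222 and 8. Dividing by median-ratio factors shifted the difference by a median of -0.22 (log2) over the 7379 genes and left 570, 98 and 3 higher genes; the settings are compared in the closing section. In bulk tissue, more cells of a type and more RNA per cell cannot be told apart.

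**Figure D1:**
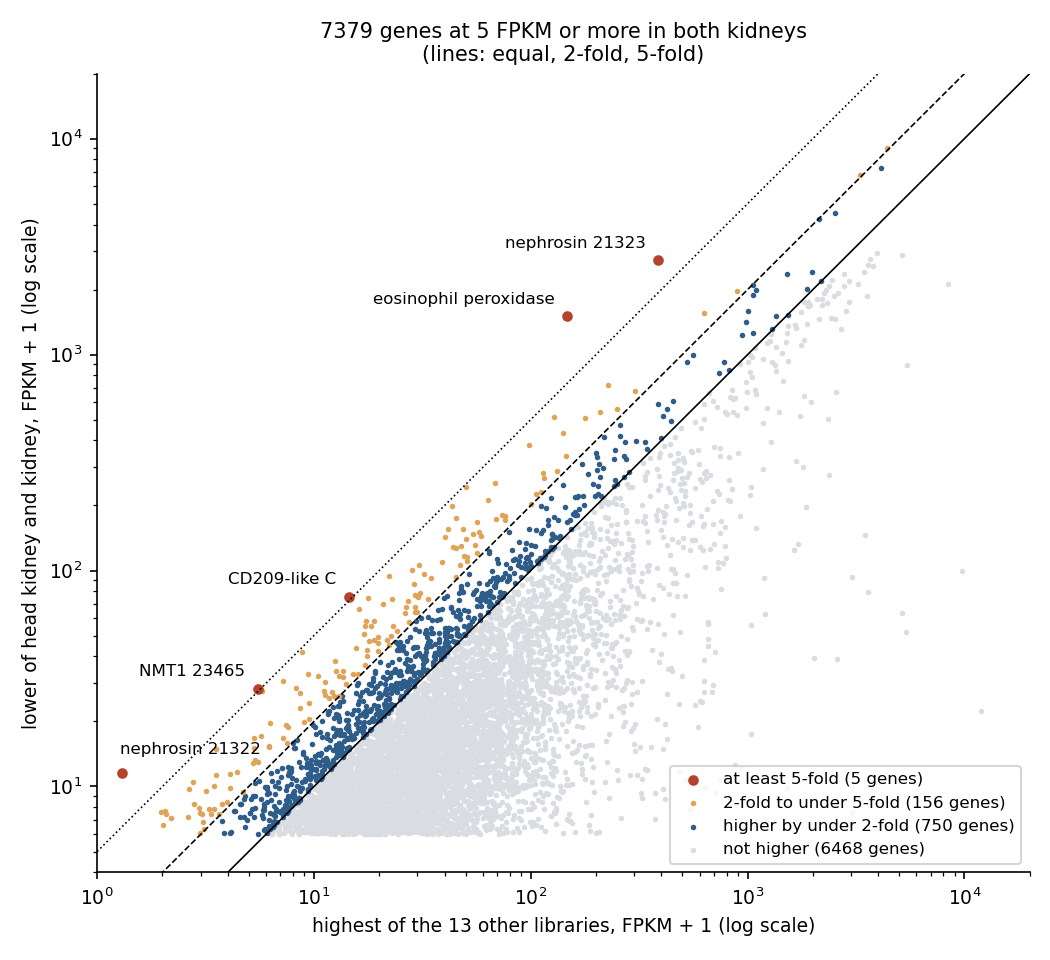
Each point is 1 of the 7379 genes at 5 FPKM or more in both kidneys, with the lower of head kidney and kidney on the vertical axis and the highest of the 13 other libraries on the horizontal axis, both as FPKM + 1 on log scales; lines mark equal, 2-fold and 5-fold. The 5 genes past the 5-fold line are named, with eosinophil peroxidase and nephrosin C0J50_21323 above it at high levels. Most of the 161 genes past 2-fold lie between the dashed and dotted lines.

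The 5 genes past 5-fold include the leading granule proteins. Nephrosin (C0J50_21323, scaffold178239, 1071633 to 1074651, plus strand, 8 exons) had 3323 FPKM in head kidney and 2729 FPKM in kidney, while the 13 others ran from 0 through a median of 13.6 to 385 FPKM in the library labelled brain. The lower kidney was 7.09-fold above that library, and heart (284 FPKM) and spleen (190 FPKM) came next. Eosinophil peroxidase (C0J50_18389, scaffold178197, 1032894 to 1045483, plus strand, 16 exons) had 1827 FPKM in head kidney and 1507 FPKM in kidney, and the 13 others ran from 0 through a median of 4.20 to 146 FPKM. Its lower kidney was 10.3-fold above the library labelled brain. Leaving out that library and the one labelled gill, the difference of eosinophil peroxidase was 4.10 on the log2(FPKM + 1) scale, against 3.36 with all 13.

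A second nephrosin model lies next to the first (C0J50_21322, scaffold178239, 1066253 to 1068353, plus strand, 6 exons). It had 12.3 FPKM in head kidney and 10.6 FPKM in kidney, against a median of 0.0728 and at most 0.298 FPKM in the 13 others, at a level far below its neighbour's. The ratio of 35.4 rests on a value under 1 FPKM. On log2(FPKM + 1) the difference was 3.15, below the 3.36 of eosinophil peroxidase, and 2.50 under median-ratio scaling. In all, 13 gene models carry the name nephrosin, and near-identical copies can share reads, so the split between them is uncertain. Of the 13, 2 were above all other libraries and 4 reached 5 FPKM in both kidneys. Their sum was 3403 FPKM in head kidney and 2798 FPKM in kidney, against 628 FPKM in the highest of the others. Of the 11 others, 8 were highest in the library labelled brain, 2 in spleen and 1 in heart.

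CD209 antigen-like protein C (C0J50_02812, scaffold160, 2054219 to 2056923, minus strand, 4 exons), a C-type lectin of the family that binds sugars on microbes, had 84.3 FPKM in head kidney and 74.7 FPKM in kidney. The 13 others ran from 0 through a median of 1.21 to 13.5 FPKM in heart, so the lower kidney was 5.54-fold above the next tissue. Glycylpeptide N-tetradecanoyltransferase 1 (C0J50_23465, scaffold178277, 311233 to 314871, minus strand, 10 exons), which attaches myristate to proteins, had 27.4 FPKM in head kidney and 28.4 FPKM in kidney, against 4.52 FPKM in heart and a median of 0.287 FPKM. It lay just inside the 5-fold line at 2.36 (log2), and neutrophil cytosol factor 4 lay just outside it at 2.28. Just inside the 2-fold line was tumor necrosis factor alpha-induced protein 8-like protein 1, with 33.2 FPKM in head kidney, 25.1 FPKM in kidney and 12.1 FPKM in heart. Just outside it was hemoglobin subunit beta-1, whose lower kidney value was 1.99 times that of heart.

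**Figure D2:**
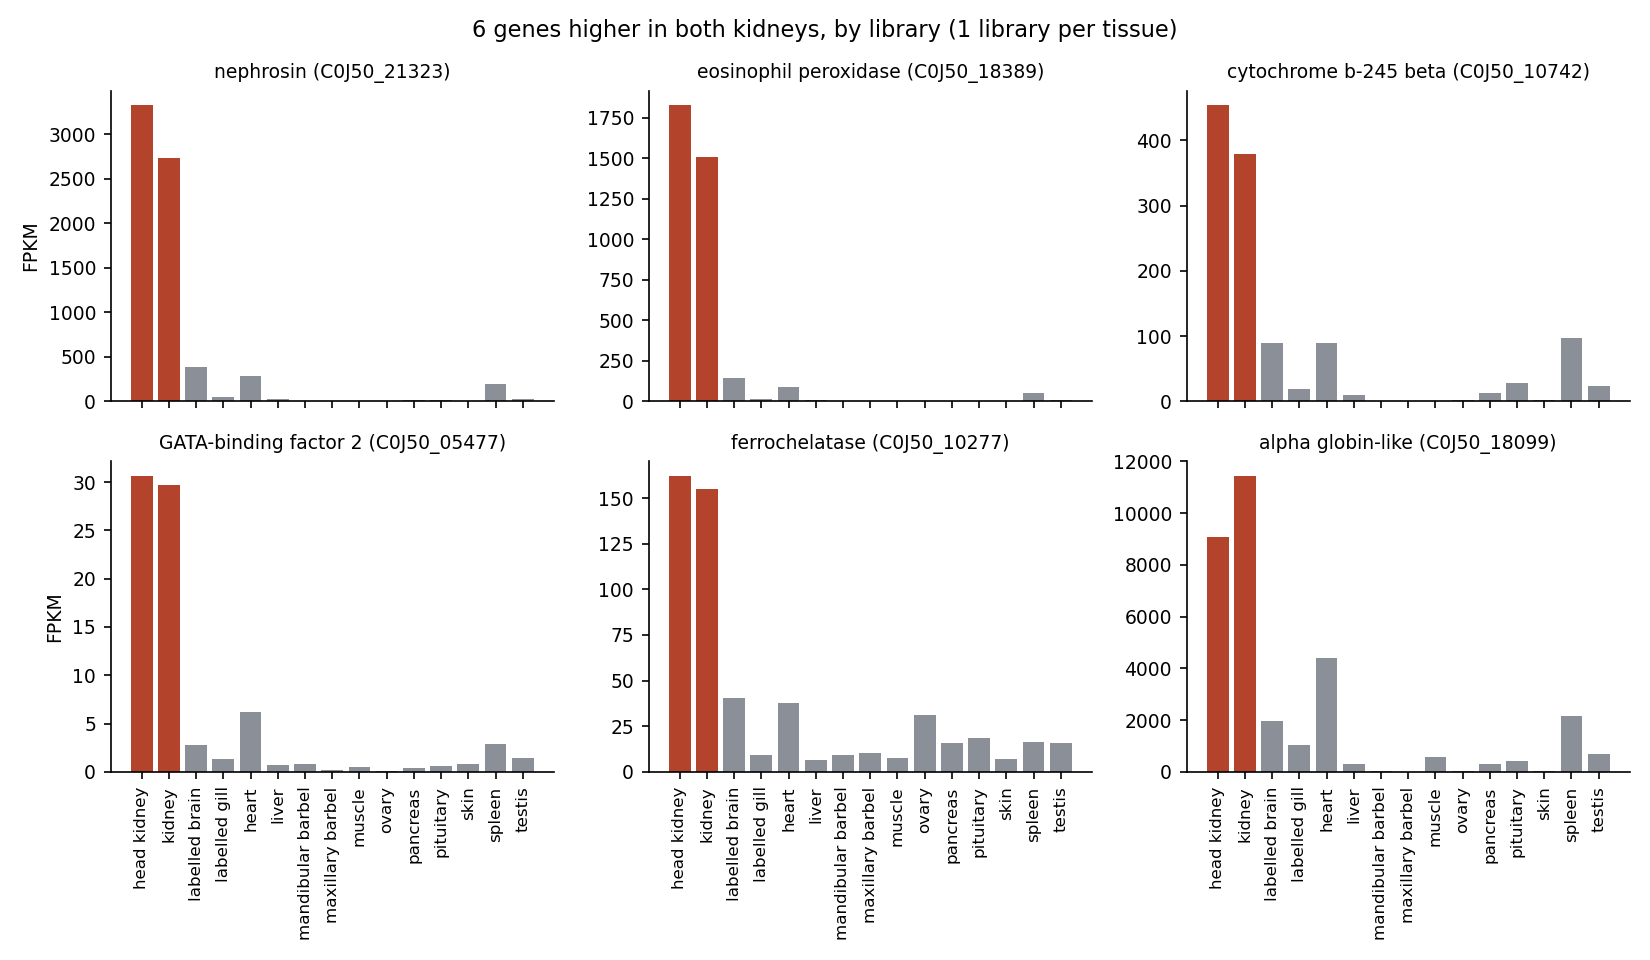
Bars show FPKM in each library for 6 genes, head kidney and kidney in red on the left and the 13 others in grey, with 1 library per tissue and so no error bars. In each panel both kidneys stand above every other library, and heart, spleen and the library labelled brain are the highest of the rest in most panels.

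Granule and lipid-mediator genes of granulocytes stood high in both kidneys. Of 14 matched members of the granulocyte list, 7 were above all 13 others, 4 of them at least 2-fold and 2 at least 5-fold. The 2 past 5-fold were nephrosin and eosinophil peroxidase, the markers already described, so these counts are not separate from them. The shares over all 25089 genes were 3.63%, 0.642% and 0.0199%. Over the 7379 genes at 5 FPKM or more in both kidneys, a level 9 of the 14 reached, they were 12.3%, 2.18% and 0.0678%. The list's median difference was 0.06, against -1.46 over all 25089 genes, but -0.96 when every row with a matching name was used. Arachidonate 5-lipoxygenase, which starts leukotriene synthesis, had 67.9 FPKM in head kidney and 65.5 FPKM in kidney, against a median of 1.95 and at most 15.1 FPKM in the others. The membrane-bound protease mmp25 had 46.4 FPKM in head kidney and 39.2 FPKM in kidney, with heart next at 16.6 FPKM. The gelatinase mmp9 reached 2149 FPKM in head kidney and 2088 FPKM in kidney, and the closest library, heart, had 1063 FPKM, just under 2-fold. The granule proteoglycan serglycin (srgn) had 1386 FPKM in head kidney, 1259 FPKM in kidney and 1057 FPKM in spleen. Leukotriene A-4 hydrolase was above all others as deposited, with 19.1 FPKM in head kidney, 19.4 FPKM in kidney and at most 12.03 FPKM elsewhere, but its difference was -0.35 under median-ratio scaling and -0.06 under common-sum scaling. Of the other 7 members, lyg1, a g-type lysozyme, and padi4 reached 5 FPKM in both kidneys, and 5 were under 1 FPKM in both. The mast cell and eosinophil list matched only 5 genes, and eosinophil peroxidase, counted here again, alone was above all others.

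Genes of the phagocyte NADPH oxidase were at least 2-fold above all 13 others. This enzyme makes superoxide for killing microbes; its membrane core is cybb with cyba, and ncf1 and ncf4 are among its cytosolic parts. Cybb had 454 FPKM in head kidney and 379 FPKM in kidney, against a lowest value of 0.370, a median of 13.2 and a highest of 97.4 FPKM in spleen. Ncf4 had 273 FPKM in head kidney and 243 FPKM in kidney, against 49.2 FPKM in heart and 48.9 FPKM in spleen. Cyba had 372 FPKM in head kidney and 287 FPKM in kidney, with spleen next at 130.5 FPKM. Ncf1 was lower in head kidney, with 338 FPKM there and 438 FPKM in kidney, and spleen was next at 144 FPKM. The list had 9 matched genes, of which 6 were above all others, all 6 at least 2-fold, against 0.642% of all genes. Of the 7379 genes at 5 FPKM or more in both kidneys, a level 7 of the 9 reached, 2.18% were at least 2-fold higher. The list's median difference was 1.23. Coronin-1A, an actin-binding protein of leucocytes, had 637 FPKM in head kidney, 505 FPKM in kidney and 177 FPKM in spleen. The proton channel hvcn1 was higher in the library labelled brain, and acod1 and nos2 were under 3 FPKM in both kidneys. Summed over the list, head kidney had 2279 FPKM and kidney 2024 FPKM, against 684 FPKM in spleen, 483 FPKM in heart and 453 FPKM in the library labelled brain.

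Among receptors, 8 of 19 matched genes were above all 13 others and 3 of those at least 2-fold, against 3.63% and 0.642% of all genes. Over the 7379 genes at 5 FPKM or more in both kidneys, a level 14 of the 19 reached, the shares were 12.3% and 2.18%. The list's median difference was -0.65, and spleen was the highest of the 13 others for 15 of the 19. Summed over the list, head kidney had 1425 FPKM, kidney 1174 FPKM and spleen 1469 FPKM. Csf3r, the receptor of the granulocyte growth factor G-CSF, had 193 FPKM in head kidney and 173 FPKM in kidney, against a median of 9.65 and at most 68.0 FPKM in the others. The leukotriene B4 receptor ltb4r had 125 FPKM in head kidney and 105 FPKM in kidney, with spleen next at 46.0 FPKM. An integrin alpha-X-like row (itgax) had 66.9 FPKM in head kidney and 72.6 FPKM in kidney and at most 28.1 FPKM elsewhere; 5 rows carry this name. The leucocyte integrin chain itgb2 was above spleen by only 0.07 (log2), and its difference was -0.14 under median-ratio scaling. Receptors with their highest value in spleen included cxcr4, which holds stem and progenitor cells in blood-forming tissue, with 279 FPKM in head kidney, 251 FPKM in kidney and 484 FPKM in spleen. Csf1r, the macrophage growth factor receptor, had 18.7 FPKM in head kidney, 12.4 FPKM in kidney and 73.6 FPKM in spleen.

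Signalling genes shared by most white blood cells were high in both kidneys and in spleen. Of 21 matched genes, 14 were above all 13 others and 4 at least 2-fold: plastin-2 (lcp1, an actin bundler), plcg2, arhgdib and nckap1l. The shares over all genes were 3.63% and 0.642%. Over the 7379 genes at 5 FPKM or more in both kidneys they were 12.3% and 2.18%. Plastin-2 had 664 FPKM in head kidney and 540 FPKM in kidney, against a median of 20.6 and at most 208 FPKM in spleen. Ptprc, which encodes the pan-leucocyte surface phosphatase CD45, had 186 FPKM in head kidney and 161 FPKM in kidney, with spleen at 119 FPKM. The kinase Fgr lay just inside the threshold at any fold, with 121.7 FPKM in head kidney, 114.48 FPKM in kidney and 114.40 FPKM in spleen, and its difference was -0.21 under median-ratio scaling. Without spleen, 19 of the 21 were above all remaining libraries, against 16.3% of the 7379 genes. Of the 21, 19 reached 5 FPKM in both kidneys.

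Transcription factors that drive blood formation were above all 13 others in 11 of 28 matched genes, of which 16 reached 5 FPKM in both kidneys. That compares with 3.63% of all genes and 12.3% of the 7379 genes at 5 FPKM or more in both kidneys. The list's median difference was -0.41. Summed over the list, head kidney had 1706 FPKM and kidney 1603 FPKM, below spleen at 2221 FPKM. By the row that stood for each symbol, the lymphoid and progenitor factor Ikaros (ikzf1) was the one past 2-fold. Ikaros had 55.5 FPKM in head kidney and 45.1 FPKM in kidney, against a median of 0.784 and at most 18.7 FPKM in spleen. A GATA-2 row that did not stand for its symbol, described below, also passed 2-fold. The blood stem cell factors tal1 and lyl1 and the granulocyte factor cebpa followed at differences of 0.93 to 0.98. Cebpa had 187 FPKM in head kidney and 150 FPKM in kidney, and 78.2 FPKM in spleen. Spi1, the master factor of myeloid cells, had 155 FPKM in head kidney, 156 FPKM in kidney and 97.2 FPKM in spleen. Myb, needed for definitive blood stem cells, had 20.4 FPKM in head kidney and 20.6 FPKM in kidney, with 11.9 FPKM in the library labelled brain, 8.04 FPKM in maxillary barbel and 1.31 FPKM in spleen. Lmo2 and fli1 were above all others by 0.20 each, and at -0.08 under median-ratio scaling.

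The annotation names 3 rows as GATA-2, the factor of stem cells, mast cells and granulocyte progenitors, and they differed. GATA-binding factor 2 (C0J50_05477, scaffold492, 6762359 to 6768256, minus strand, 8 exons) had 30.7 FPKM in head kidney and 29.7 FPKM in kidney, against a median of 0.778 and at most 6.22 FPKM in heart. GATA binding protein 2a (C0J50_07388), which stood for the symbol in the lists because its mean over all libraries was highest, had 2.29 FPKM in head kidney, 1.99 FPKM in kidney and 62.6 FPKM in the library labelled brain. The one named endothelial transcription factor GATA-2 had 1.27 FPKM in head kidney and 0.962 FPKM in kidney. Of the factors not above all others, cebpb had 945 FPKM in head kidney, 929 FPKM in kidney and 1527 FPKM in spleen, and cebpd lay at the low end: 18.5 FPKM in head kidney and 23.3 FPKM in kidney, against 19.4 to 414 FPKM and a median of 176 FPKM in the 13 others.

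The receptors of the red cell and thrombocyte growth factors erythropoietin and thrombopoietin were above all 13 others by under 2-fold. The genes of erythropoietin and thrombopoietin themselves were low in both kidneys. Of 17 matched genes of the niche list, 4 reached 5 FPKM in both kidneys and 3 were above all 13 others. That compares with 3.63% of all genes, 12.3% of the 7379 genes and 3 of 13 housekeeping genes. The 3 were the erythropoietin receptor epor (28.2 FPKM in head kidney, 31.9 FPKM in kidney, at most 18.6 FPKM elsewhere), the thrombopoietin receptor mpl (10.7 FPKM in head kidney, 10.5 FPKM in kidney, 8.35 FPKM in spleen) and the adhesion molecule vcam1. The difference of vcam1 was 0.06 as deposited and -0.15 under median-ratio scaling. Erythropoietin itself had 0.0317 FPKM in head kidney and 0.0969 FPKM in kidney, and 18.9 FPKM in heart. Thrombopoietin had 0.479 FPKM in head kidney and 0.228 FPKM in kidney, and 45.02 FPKM in heart. Not every growth factor gene was low. Macrophage colony-stimulating factor 2 (C0J50_18960), not among the 17 and singled out after its values were seen, was at least 2-fold above all 13 others. It had 11.8 FPKM in head kidney and 5.62 FPKM in kidney, with spleen next, a difference of 1.73 (log2). The stromal chemokine cxcl12, the ligand of cxcr4, had 195 FPKM in head kidney and 132 FPKM in kidney, between a median of 11.6 FPKM in the others and 241 FPKM in spleen. The stem cell factor receptor kit was low in both kidneys, at 1.995 FPKM in head kidney and 1.81 FPKM in kidney.

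**Figure D3:**
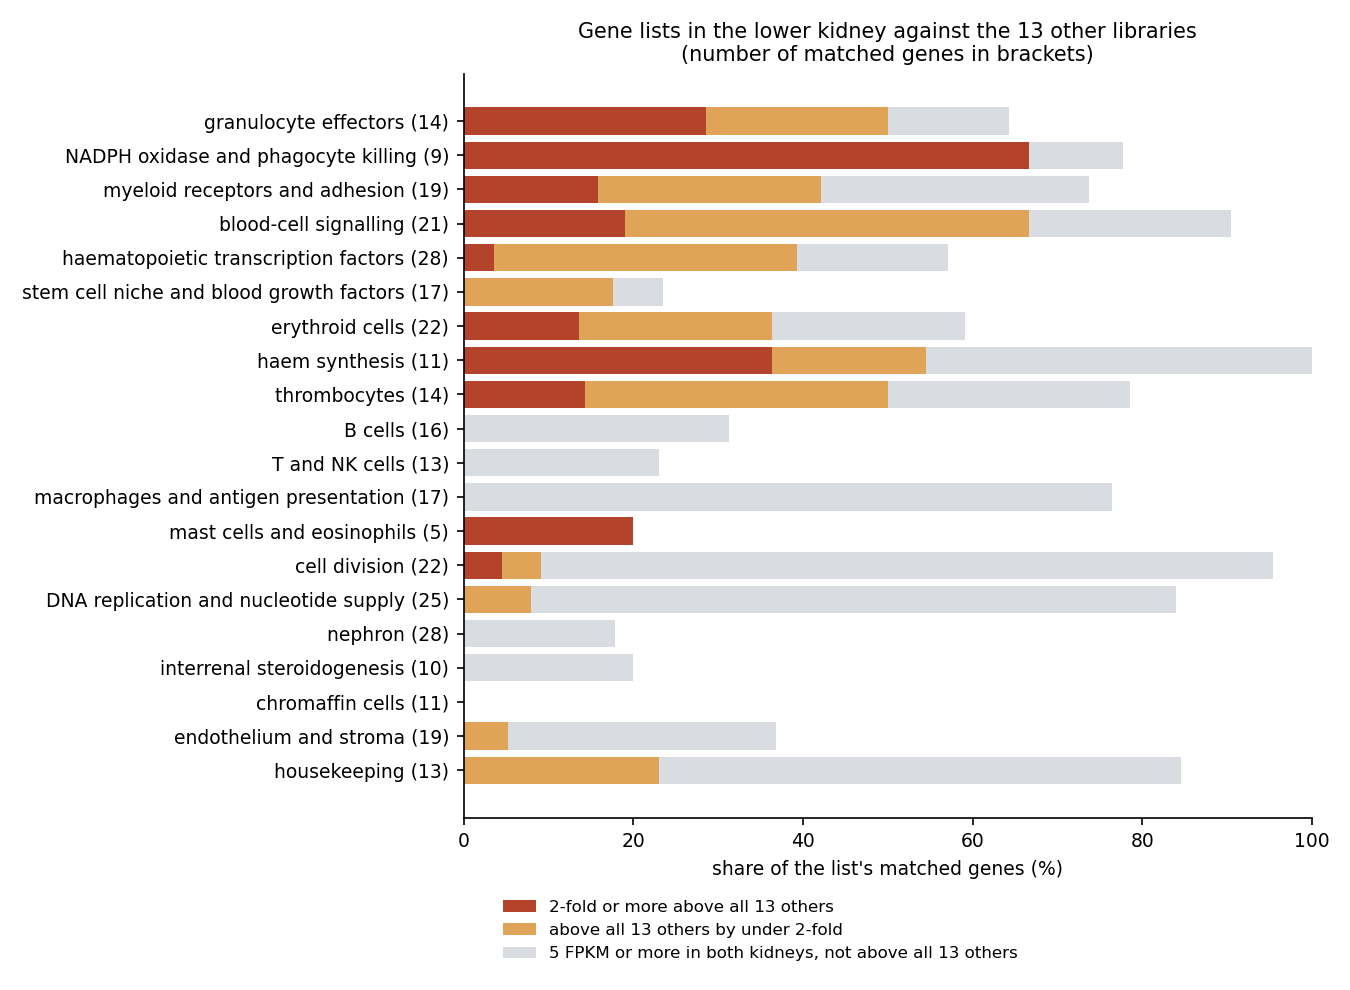
Bars give, for each gene list with its number of matched genes, the share of genes at least 2-fold above all 13 others in the lower kidney (red), above them by less (orange), and at 5 FPKM or more in both kidneys but not above them (grey). The NADPH oxidase list has the longest red bar (6 of 9 genes), and the B cell, T and NK cell and macrophage lists have none. The niche, DNA replication, nephron, interrenal, chromaffin, endothelium and stroma, and housekeeping lists have no red bar either.

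Heart was the highest of the 13 others for 8 of 22 matched erythroid genes. It was so for 4.36% of the 7379 genes at 5 FPKM or more in both kidneys, a level the 22 were not limited to. Of the 22, 13 reached 5 FPKM in both kidneys. Above all 13 others were 8 of the 22, and 3 of these at least 2-fold. The shares were 3.63% and 0.642% of all genes, and 12.3% and 2.18% of the 7379 genes. The 3 were hemogen, the erythroid first enzyme of haem synthesis alas2, and the band 3 anion exchanger slc4a1. Hemogen, a nuclear protein of blood-forming cells, had 87.2 FPKM in head kidney and 85.9 FPKM in kidney, against a median of 6.61 and at most 28.0 FPKM. Alas2 had 91.0 FPKM in head kidney and 101 FPKM in kidney, against 33.6 FPKM in heart. The rows alpha globin-like C0J50_18099 and C0J50_18100, neighbours on scaffold178191, were among the most abundant. The first had 9078 FPKM in head kidney and 11440 FPKM in kidney, and the lower kidney was 2.07-fold above heart at 4380 FPKM; the difference was 1.05 (log2) as deposited, and 0.69 under median-ratio scaling and 0.87 under common-sum scaling, short of 2-fold. Over 14 rows named as hemoglobin or alpha globin, the sum was 20878 FPKM in head kidney and 26307 FPKM in kidney, against 10173 FPKM in heart, 4942 FPKM in spleen and 4680 FPKM in the library labelled brain; 8 of the 14 were above all other libraries, and 6 under median-ratio scaling. Fish red cells keep their nucleus and messenger RNA, and red cells in the blood of a tissue carry the same genes, whose part in each result was not tested. Over the erythroid list head kidney had 4773 FPKM and kidney 5964 FPKM, and the 13 others summed to between 23.6 FPKM in maxillary barbel and 2494 FPKM in heart. The iron importer tfrc, higher in ovary, and the ammonia channel rhag, higher in the library labelled brain, were each above every other library but that one.

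Haem synthesis was high at several of its later steps. The erythroid first enzyme alas2, counted with the erythroid genes above and not here, also passed 2-fold. All 11 matched genes reached 5 FPKM in both kidneys, and 6 were above all 13 others, against 12.3% of the 7379 such genes. At least 2-fold were 4: uros, urod, cpox and fech, which act in that order, fech inserting the iron. Ppox, also on the list, was not among the 4. A ferrochelatase (fech) row, C0J50_10277, had 162 FPKM in head kidney and 155 FPKM in kidney, against a median of 15.7 and at most 40.6 FPKM in the library labelled brain. It is a partial model of 420 coding bases on a short scaffold, and a separate ferrochelatase row, C0J50_04648, had 6.98 FPKM in head kidney and 7.71 FPKM in kidney and also passed 2-fold. Coproporphyrinogen oxidase (cpox) had 81.0 FPKM in head kidney and 74.7 FPKM in kidney, with ovary next at 29.3 FPKM. Uroporphyrinogen decarboxylase (urod) had 150 FPKM in head kidney and 144 FPKM in kidney, with ovary next at 58.0 FPKM. For the 5 that were not above all others, ovary was the highest of the 13 others, as it was for 38.6% of the 7379 genes. Among the 5 was alas1, with 152 FPKM in head kidney, 138 FPKM in kidney and 246 FPKM in ovary.

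Thrombocytes, the nucleated clotting cells of fish, were represented by 14 matched genes. Of these, 11 reached 5 FPKM in both kidneys and 7 were above all 13 others. That compares with 3.63% of all genes and 12.3% of the 7379 genes at 5 FPKM or more in both kidneys. P-selectin, an adhesion protein of thrombocyte granules, had 117 FPKM in head kidney and 100.1 FPKM in kidney, against a median of 3.31 and at most 27.4 FPKM in heart. The clotting factor f13a1 had 175 FPKM in head kidney and 155 FPKM in kidney, and 47.6 FPKM in heart. Both passed 2-fold, while the platelet glycoproteins itga2b, gp1bb, gp1ba and gp5 and the receptor mpl were above all others by 0.29 to 0.58. Heart was the highest of the 13 others for itgb3, thbs1 and vwf, with 105 FPKM of vwf against 5.96 FPKM in head kidney and 3.56 FPKM in kidney. Vwf and thbs1 are also made by endothelium and stroma. Which cells the P-selectin and f13a1 values came from was not tested either.

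By the row that stood for each symbol, 0 of 16 B cell genes, 0 of 13 T and NK cell genes and 0 of 17 genes of macrophages and antigen presentation were above all 13 others. Only 5, 3 and 13 of them reached the 5 FPKM in both kidneys that a call needs, so against 12.3% of all such genes the lymphocyte counts say little. Spleen was the highest of the 13 others for 8 of the 16, 10 of the 13 and 10 of the 17. It was so for 14.5% of the 7379 genes at 5 FPKM or more in both kidneys, a level these lists were not limited to. The B cell coactivator pou2af1 had 7.70 FPKM in head kidney, 7.44 FPKM in kidney and 20.8 FPKM in spleen. The highest immunoglobulin light chain row of 99 had 83.8 FPKM in head kidney, 73.2 FPKM in kidney and 366 FPKM in spleen; such rows share reads. The recombination genes rag1 and rag2, which mark developing lymphocytes, were under 1 FPKM in both kidneys. The complement gene c1qa, made by macrophages, had 113 FPKM in head kidney, 115 FPKM in kidney and 798 FPKM in spleen, and the invariant chain cd74 had 316 FPKM in head kidney, 300.1 FPKM in kidney and 1795 FPKM in spleen. Without spleen, 2 B cell genes (blnk and pou2af1) and 2 macrophage genes (grn and mrc1) were above all remaining libraries. Another row with the name of mrc1, macrophage mannose receptor 1 (C0J50_03342, singled out after its values were seen), was at least 2-fold above all 13 others. It had 61.4 FPKM in head kidney, 48.2 FPKM in kidney and 18.7 FPKM in spleen. Transcription factor Spi-C-like (C0J50_11455), which did not stand for the listed symbol spic, also passed 2-fold. This row had 13.2 FPKM in head kidney, 10.4 FPKM in kidney and at most 3.11 FPKM elsewhere.

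Dividing-cell genes were high in both kidneys and in the gonads. Of 22 matched cell division genes, 21 reached 5 FPKM in both kidneys and 2 (9.09%) were above all 13 others. That compares with 3.63% of all genes and 12.3% of the 7379 genes at 5 FPKM or more in both kidneys. For the other 20 cell division genes, ovary was the highest of the 13 others and was above the lower kidney. Ovary was the highest of the 13 for 38.6% of the 7379 genes. Ki-67 (mki67), the nuclear protein that marks cycling cells, had 56.3 FPKM in head kidney and 46.7 FPKM in kidney, against a median of 4.12 and at most 20.8 FPKM in testis, and passed 2-fold. The mitotic kinase cdk1 had 81.4 FPKM in head kidney and 60.5 FPKM in kidney, with 78.7 FPKM in ovary, 19.1 FPKM in testis and a median of 6.67 FPKM. Summed over the list, head kidney had 751 FPKM and kidney 536 FPKM, ovary 2161 FPKM, testis 225 FPKM and the other 11 libraries at most 123 FPKM. Without ovary and testis, a comparison chosen after seeing the data, 20 of the 22 were above all remaining libraries, against 27.3% of the 7379 genes. DNA replication genes gave 2 of 25 (8%) above all 13 others (the sliding clamp pcna and uhrf1), against the same 3.63% and 12.3%. Without the gonads 20 of the 25 were above all remaining libraries. Rrm2, a subunit of the enzyme that makes deoxynucleotides, had 164 FPKM in head kidney and 210 FPKM in kidney, with 335 FPKM in ovary and a median of 15.5 FPKM.

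**Figure D4:**
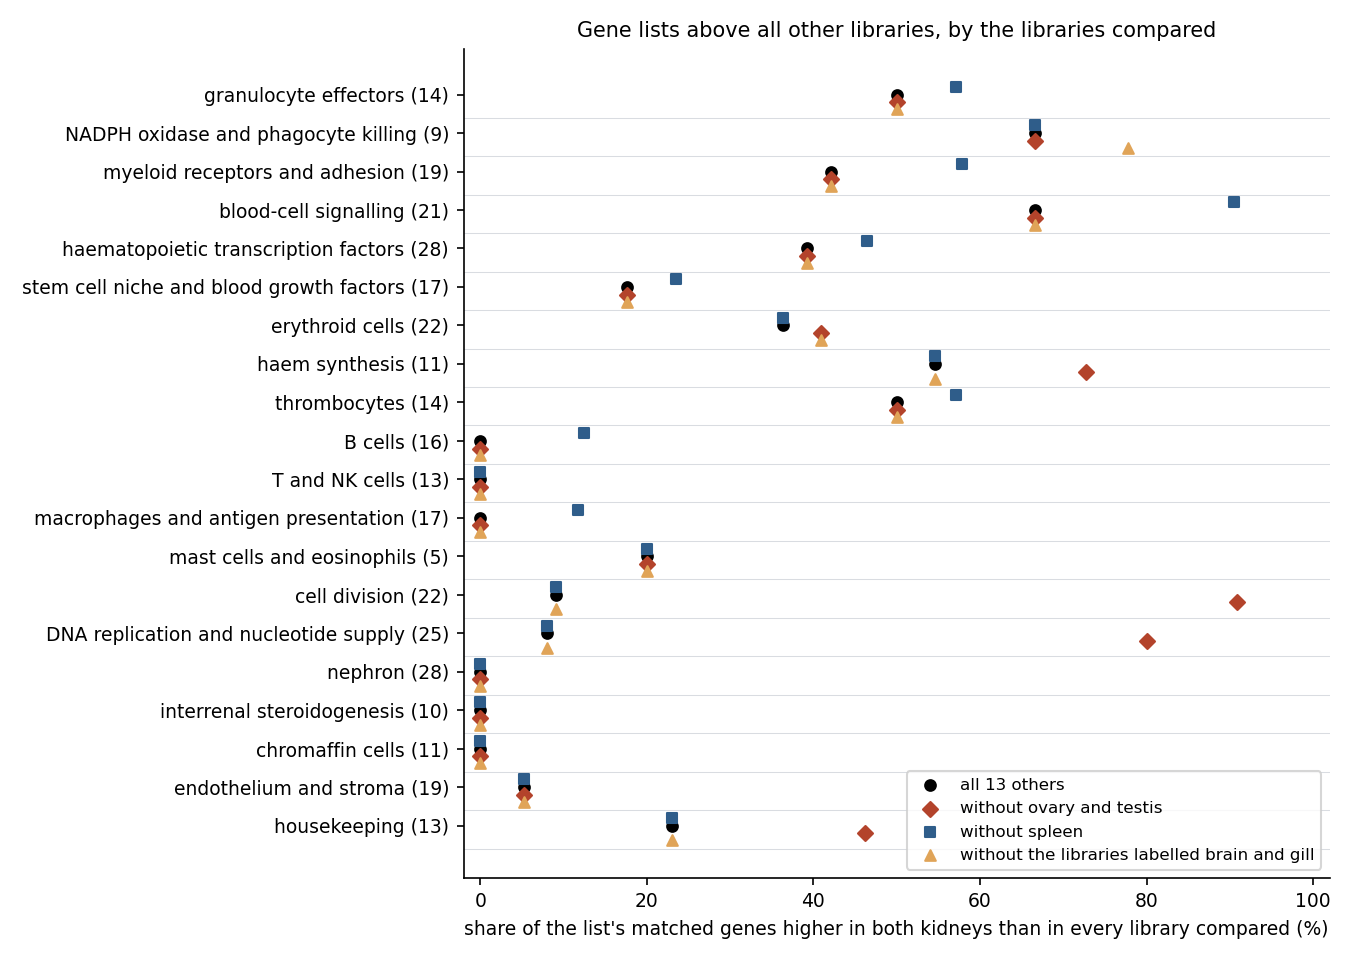
Points give the share of each list's matched genes that were higher in both kidneys than in every library compared, for all 13 others (black circles), without ovary and testis (red diamonds), without spleen (blue squares) and with the brain and gill labels left out (orange triangles). Leaving out the gonads moves the cell division list from 2 to 20 of 22 genes and the DNA replication list from 2 to 20 of 25, and leaving out spleen moves blood-cell signalling from 14 to 19 of 21.

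Few genes of nephron, interrenal and chromaffin cells could be called, since 5 of 28, 2 of 10 and 0 of 11 reached 5 FPKM in both kidneys, and none was above all 13 others. With kidney alone in place of the lower of both, 10 of the 28 nephron genes were above all 13 others, against 13.3% of the genes at 5 FPKM or more in kidney. With head kidney alone 1 of the 10 interrenal genes was, against 15.4% of the genes at 5 FPKM or more there. Neither the 28 nor the 10 were limited to genes at that level, so these shares do not have the same base. Of 19 endothelial and stromal genes, 7 reached 5 FPKM in both kidneys and 1 (5.26%) was above all others. That compares with 3.63% of all genes and 12.3% of the 7379 genes at 5 FPKM or more in both kidneys. The gene was lyve1, a receptor of sinusoidal and lymphatic endothelium, with 91.2 FPKM in head kidney, 61.8 FPKM in kidney and 46.2 FPKM in testis. The fibroblast collagen chain col1a2 had 7.43 FPKM in head kidney and 6.46 FPKM in kidney, against a median of 16.6 and at most 55.9 FPKM in testis. Among 13 housekeeping genes, 3 (23.1%) were above all others as deposited, against the same 3.63% and 12.3%: actb, ppia and eef1a1. Under median-ratio scaling, however, ppia was at -0.48 and eef1a1 at -1.004, and ppia was at -0.12 under common-sum scaling.

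On log2(FPKM + 1), none of the 161 genes differed by 2-fold or more between head kidney and kidney, against 22 of the 7379 genes (0.298%), and a rule on the lower kidney favours genes that are alike in both. The gene furthest apart, macrophage colony-stimulating factor 2 (C0J50_18960), had 11.8 FPKM in head kidney and 5.62 FPKM in kidney. Of the 161, 132 (82.0%) were higher in head kidney, against 70.8% of the 7379 genes at 5 FPKM or more in both. Under median-ratio scaling those shares were 71.4% and 57.3%. The lists differed in their lean: the median of head kidney minus kidney, on log2(FPKM + 1), was 0.45 for cell division, 0.26 for the NADPH oxidase list, -0.01 for erythroid genes and -0.02 for thrombocyte genes, and -1.36 for the nephron list. Of the 22 cell division genes 21 were higher in head kidney, and the mitotic kinase plk1 had 82.0 FPKM there and 49.1 FPKM in kidney. Hemoglobin subunit beta-1 had 4239 FPKM in head kidney and 5413 FPKM in kidney.

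**Figure D5:**
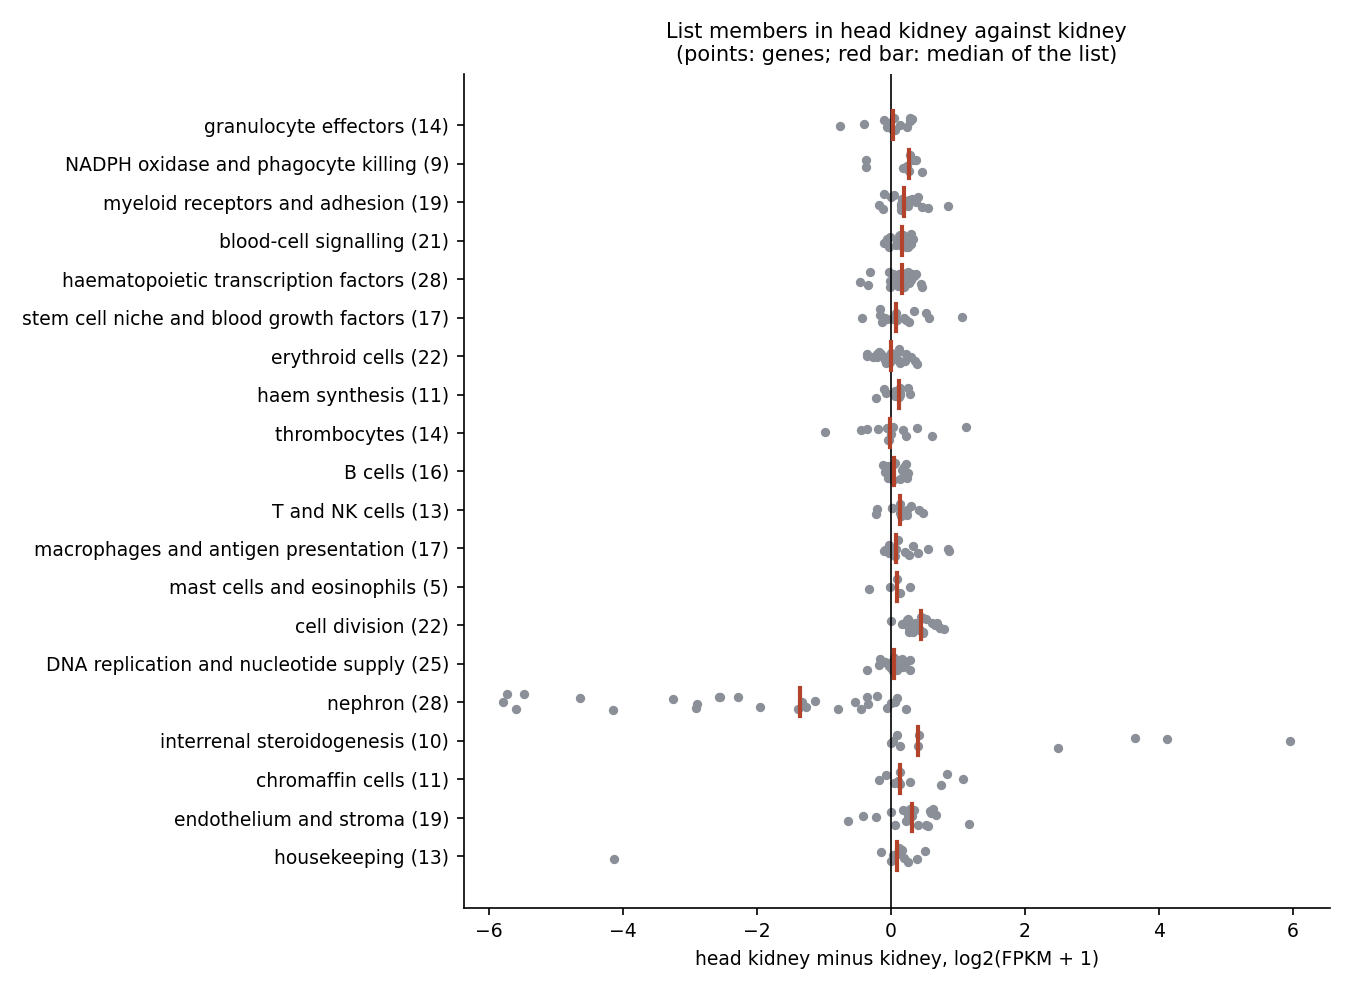
Each point is a list member, placed at head kidney minus kidney on log2(FPKM + 1), with the list median as a red bar. Blood-cell lists lie near 0, the cell division list has a median of 0.45, and nephron genes (kidney) and 4 interrenal genes (head kidney) spread to opposite sides.

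Heart, spleen and the library labelled brain came nearest to the kidneys. Among the 161 genes, the highest of the 13 others was heart for 52 (32.3%), spleen for 43 (26.7%), the library labelled brain for 41 (25.5%) and testis for 12 (7.45%). Over the 7379 genes at 5 FPKM or more in both kidneys, those shares were 4.36%, 14.5%, 11.8% and 8.01%, and ovary led for 38.6%. The median level of the 161 genes was 26.9% of the lower kidney in heart, 25.8% in spleen and 24.7% in the library labelled brain, and 1.17% in ovary. Among all 911, spleen led for 265 (29.1%), the library labelled brain for 230 (25.2%) and heart for 107 (11.7%). Ovary led for 104 (11.4%) of the 911 and testis for 93 (10.2%). Most of the 161 were not silent elsewhere: the median gene had 1 FPKM or more in 9 of the 13 others, 37 genes in all 13 and 40 genes in 5 or fewer. The lower kidney was a median of 2.75-fold above the highest other library and 22.9-fold above the median of the others.

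By protein name and domain, 144 of the 161 were named and 17 were not. Immunoglobulin-like domains were annotated in 11 of them (6.83%, against 2.51% of the 7379 genes) and C-type lectin domains in 6 (3.73%, against 0.257%). Sialoadhesin-like (C0J50_03988), a sialic acid receptor of the immunoglobulin family, had 30.4 FPKM in head kidney and 26.6 FPKM in kidney, and 4.77 FPKM in heart. Some of the 161 lay within 2 gene steps of each other. A run of 3 CD209-like lectins on scaffold160 held C0J50_02812 and CD209 antigen-like protein D (C0J50_02814, 45.2 FPKM in head kidney and 41.0 FPKM in kidney, 7.76 FPKM in heart). The run was interrupted by CD209 rows C0J50_02811 and C0J50_02813, which were not among the 161. Of 14 rows named CD209, 4 were above all others, and 3 under median-ratio scaling. The share over all genes was 3.63%, and these rows were grouped after their values were seen. Csf3r lay next to plac8 onzin related protein 6, which had 1778 FPKM in head kidney, 1563 FPKM in kidney and 626 FPKM in spleen. The unnamed gene with the largest difference, C0J50_03253, had 23.0 FPKM in head kidney and 13.8 FPKM in kidney, and 2.53 FPKM in heart.

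Further named genes with large differences covered sugar use, nucleosides and signalling. The glucose transporter SLC2A3 (C0J50_20509) had 231 FPKM in head kidney and 198 FPKM in kidney, and 42.4 FPKM in heart. Transketolase-like (C0J50_18864), of the pentose phosphate pathway, had 575 FPKM in head kidney and 515 FPKM in kidney, and 127 FPKM in the library labelled brain. Phosphoglucomutase-2 had 223 FPKM in head kidney and 174 FPKM in kidney, with testis next at 44.1 FPKM. Ras-related C3 botulinum toxin substrate 1 (C0J50_13486), a Rac GTPase row of the kind that switches on the phagocyte oxidase, had 119 FPKM in head kidney, 92.9 FPKM in kidney and 21.3 FPKM in heart. Cytidine deaminase had 73.4 FPKM in head kidney and 82.6 FPKM in kidney, with liver next at 16.7 FPKM; its difference was 2.07 as deposited and 0.58 under median-ratio scaling. The metalloprotease ADAM8 had 302 FPKM in head kidney, 255 FPKM in kidney and 67.2 FPKM in spleen, and leukotriene-B(4) omega-hydroxylase 2 had 36.4 FPKM in head kidney, 32.2 FPKM in kidney and 8.36 FPKM in the library labelled brain. Of the 25 named genes with the largest difference, the remaining 5 (PLAC8-like protein 1, GALNT8, CLEC4F-like, RASEF and a Rieske domain protein) had lower kidney values of 6.43 to 9.46 FPKM.

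The profile of nephrosin over the 15 libraries was most like that of eosinophil peroxidase, with a Spearman rho of 0.993. A C-C chemokine receptor type 5-like gene (0.982), cerebellar degeneration-related protein 2 (0.975), transketolase-like (0.968) and olfactomedin-4-like C0J50_23868 (0.964) came next, among genes that reached 5 FPKM in any library. These are descriptions over 15 libraries that include both kidneys. Olfactomedin-4, a granule protein of a neutrophil subset in mammals, had 349 FPKM in head kidney and 351 FPKM in kidney for this row and 199.8 FPKM in heart.

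The gene lower in both kidneys than in every other library was ID-1 (C0J50_14204, scaffold178116, 66092 to 66604, plus strand, 2 exons), an inhibitor of basic helix-loop-helix transcription factors. It had 5.09 FPKM in head kidney and 4.35 FPKM in kidney, against 12.7 FPKM in the lowest of the others, a median of 26.1 and 104 FPKM in maxillary barbel; under common-sum scaling it no longer passed 2-fold. Of the next 9 genes in that direction, SAR1a and DCAF11 were below every other library in both kidneys, with 4.80 and 6.75 FPKM in head kidney, 4.37 and 6.71 FPKM in kidney, and lowest other values of 6.32 and 7.70 FPKM. The other 7 overlapped with the lowest of the 13 others. Ndrg2 had 10.96 FPKM in head kidney, 8.37 FPKM in kidney, and between 10.7 and 373 FPKM elsewhere. Ribosomal proteins were among the highest genes of both kidneys without being above the others: 60S ribosomal protein L39 had 3466 FPKM in head kidney and 2949 FPKM in kidney, and 3957 FPKM in spleen.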

How the data were processed

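The authors deposited 1 table of FPKM per gene for 15 libraries and an annotation table with protein names, domains and scaffold positions; StringTie 1.3.4d is named per the submitters' processing notes. Neither aligner nor genome build is given in the sources used here. FPKM are not counts, so no count model was run, and with 1 library per tissue no test was possible. Relative depth was read only from the most common value below 1 of FPKM times coding length in kilobases, per library.

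Per gene, the lower of head kidney and kidney was set against the highest of the 13 others on log2(FPKM + 1), with a minimum of 5 FPKM in both kidneys; the rule was tested on simulated data (Python 3.11.15, numpy 2.4.6, pandas 2.3.3). A list symbol was matched by protein name, at the row with the highest mean where several matched; 328 of 416 symbols matched, and copies sharing a name may share reads. Named genes were all past 5-fold, the 25 named and 5 unnamed genes with the largest difference, the 10 most abundant, the 10 most opposite, those just inside and outside each threshold, list members, and the 5 profiles most like nephrosin. The genes and lists were chosen with earlier results of these data known. The GATA-2, CD209, hemoglobin, nucleoside, pentose phosphate, leukotriene B4 and fatty acyl-CoA reductase groups were chosen after their values were seen. Alternatives were other pseudocounts, minimums and scalings and leaving out libraries; leaving out heart, or the gonads, was chosen after seeing the data.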

Additional observations from a re-analysis of the deposited data

How the results depend on the processing

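The count of genes above all 13 others was 911 as deposited, 570 under median-ratio scaling and 2016 without ovary and testis. At least 2-fold higher were 161 genes as deposited, 98 under median-ratio scaling, 292 without spleen and 366 without ovary and testis. At least 5-fold higher were 5 genes as deposited, 14 with a pseudocount of 0.1, 3 under median-ratio scaling, 3 under common-sum scaling, 8 without the brain and gill labels, 13 without spleen, 12 without heart and 17 without ovary and testis. At least 2-fold lower was 1 gene as deposited, 2 with a pseudocount of 0.1, under median-ratio scaling, without spleen or without ovary and testis, 0 under common-sum scaling, and 3 without muscle, skin and both barbels. With kidney or head kidney left out, leaving a comparison of the other one alone, the counts ran from 1023 to 1216 at any fold, 212 to 232 at 2-fold, 13 to 33 at 5-fold and 1 to 2 lower. Leaving out libraries can only add higher genes, by construction; for the scalings and the pseudocount the cause was not tested. Among the genes picked for individual naming, which are only part of the 161, no difference of at least 2-fold changed sign. Of these named genes, 6 fell short of 2-fold under median-ratio scaling and 3 under common-sum scaling. Over all genes the 2-fold count fell from 161 to 98 under median-ratio scaling, so far more calls than those 6 depended on the scaling. Using every row with a matching name in place of 1 row per symbol moved the median difference of 6 of the 20 lists, among them myeloid receptors (-0.65 with 1 row, 0.11 with every row) and thrombocytes (0.04 with 1 row, -0.46 with every row). Absolute depth is unknown, and each tissue is 1 library, so the spread between fish of any value here is unknown. No paired analysis was possible because each tissue has 1 library and the labels do not say which tissues share a fish.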

Other observations

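The groups here were put together by protein name after the values were seen, so their counts describe the groups and nothing more. Over all genes, 3.63% were above all 13 others and 0.642% at least 2-fold. Of 10 rows named for enzymes of the pentose phosphate pathway, which makes NADPH and ribose, 5 were above all 13 others and 3 at least 2-fold, against 3 and 2 under median-ratio scaling. Glucose-6-phosphate dehydrogenase (C0J50_00899), its entry step, had 138.6 FPKM in head kidney and 104.5 FPKM in kidney, and at most 29.5 FPKM elsewhere. 6-phosphogluconate dehydrogenase (C0J50_00915) had 249.5 FPKM in head kidney and 225 FPKM in kidney, and at most 105 FPKM elsewhere, a difference that was 0.07 under median-ratio scaling.

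Of 30 rows for nucleoside salvage and transport, 6 were above all others and 5 at least 2-fold, against 6 and 4 under median-ratio scaling. Deoxycytidine kinase (C0J50_17288) had 73.2 FPKM in head kidney and 76.0 FPKM in kidney, and 21.9 FPKM in testis. Neighbouring uridine phosphorylase 1 rows (C0J50_22946 and C0J50_22947) had 33.9 and 146 FPKM in head kidney, 33.3 and 139 FPKM in kidney, and at most 11.7 and 49.1 FPKM elsewhere. All 5 rows named fatty acyl-CoA reductase were above all others and 4 at least 2-fold. Among the 4, 3 are short models of 159, 360 and 465 coding bases on separate scaffolds, with 146 to 171 FPKM in head kidney, and whether they are separate genes is not known. Of 8 rows named for leukotriene B4, 4 were above all others and 3 at least 2-fold, against 3 and 2 under median-ratio scaling.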
